A study of Arabidopsis thaliana with 24 samples.

Results

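Roots were compared with shoots of Arabidopsis thaliana in the earliest hour of an osmotic stress experiment. The comparison holds 8 of the 24 arrays of the series: 4 of roots and 4 of shoots, with 2 arrays for each tissue at 0.5 h and 2 at 1 h. They were chosen by the tissue and the time in their labels, and no measured value entered that choice. The plants were wild-type Col-0, 16 days old, and grew on rafts over Murashige and Skoog medium in 16 h days. Mannitol, a sugar alcohol, was added to the medium to 300 mM, 3 h into the light period. Roots and shoots were both treated at both times, and untreated plants were not analysed here, so the differences are those between 2 treated tissues. Whether replicates were grown apart is not stated in the labels, and the p-values therefore cover the spread between these samples alone, which may be technical. The arrays at 3, 6, 12 and 24 h serve at the end, to set the early tissue difference beside the later ones.

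Leaves make sugars in chloroplasts. There the photosystems and their antennae in the thylakoid membrane capture light, and the Calvin cycle in the stroma fixes carbon dioxide. The chloroplast keeps a small genome of its own, but most of its proteins come from nuclear genes. Roots hold non-green plastids, take up water and mineral nutrients, live on sucrose unloaded from the phloem and grow from a meristem at the tip. Roots of this plant family also fill ER bodies, a compartment of the endoplasmic reticulum, with beta-glucosidases that act in defence. Mannitol lowers the water potential of the medium. The root meets it directly, and the shoot meets it through its water supply. Late embryogenesis abundant (LEA) proteins, among them the dehydrins, are known to accumulate in plant tissue that loses water.

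Values are the deposited array signals of probe sets, the small groups of probes that each measure 1 transcript. Differences are roots minus shoots on the scale of log2(signal + 8), so that 1 stands for 2-fold and a positive value for a higher level in roots. Adding 8 pulls the differences of weak signals toward 0. Each difference stands with its standard error from limma, with n = 4 arrays per tissue and time as a term, and p-values are limma's, adjusted over all 15875 probe sets tested. Signals of single arrays stand in the order 0.5 h replicates 1 and 2, then 1 h replicates 1 and 2. The files used here hold no detection calls, so a signal of a few units was read only as low. In whole tissue, fewer cells of a type and less RNA per cell cannot be told apart. With 4 arrays per tissue, the precision of each value is limited by that number.

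The labels of the tissues held up against marker genes. Of 11 green-tissue markers named on the array, 11 were lower in roots, where their summed signal was 547 to 582, against 38475 to 43317 in shoots. Of a longer list of root markers, 3 were found by name on the array. These, PYK10, EXPA18 and EXPA7, were higher in roots, with sums of 3142 to 3600 in roots and 456 to 1057 in shoots. Most of the sum was PYK10, at 3060 to 3494 in roots, where EXPA18 read 25.8 to 61.4 and EXPA7 23.2 to 73.8. The stomatal lineage regulators FMA and SPCH were lower in roots, and their sum with MUTE, another stomatal regulator that was too weak to test, was 11 to 23.4 in roots and 61.0 to 102 in shoots. Replicate arrays correlated across probe sets with r of 0.972 to 0.983, arrays of the same tissue at different times with 0.936 to 0.978, and arrays of different tissues with 0.446 to 0.496. The median signal was 43.6 to 48.3 on root arrays and 38.4 to 40.6 on shoot arrays. RNA quality measures moved with tissue. The 3' to 5' ratio of the first actin control was 1.73 to 1.75 in roots and 2.41 to 2.80 in shoots, that of the second was 10 to 12.1 in roots and 6.42 to 8.67 in shoots, and that of GAPDH was 0.956 to 1.22 in roots and 1.35 to 1.49 in shoots. Their part in the tissue differences was not tested.

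Most of the measured transcriptome differed between the tissues. Of 15875 probe sets tested, 11630 (73.3%) passed an adjusted p of 0.05, of which 7679 (48.4%) were higher in roots and 3951 (24.9%) lower. Among the 8531 tested genes that a probe set names alone, 6186 (72.5%) passed, with 4142 (48.6%) higher in roots and 2044 (24.0%) lower. Counts of gene groups are read against these shares. Differences of at least 2-fold were found in 1643 genes higher in roots and 1254 lower, and of at least 4-fold in 607 and 701 genes in the same order. At 16-fold and beyond the balance was 78 genes higher in roots and 159 lower. All 4 root arrays lay above all 4 shoot arrays in 3800 genes (44.5%), and below them in 1872 (21.9%). The signal averaged below 8 in roots and at least 100 in shoots in 80 genes, and the reverse held in 81.

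The higher share of calls toward roots depended on scaling. The median difference over all tested probe sets was 0.29 as deposited, 0.18 after quantile normalization and 0.13 after scaling each array to a common median. The share of calls that were higher in roots was 66.0% as deposited, 59.2% with quantile normalization and 56.7% with median scaling. A group of genes with a median difference near 0.29 therefore sat where the array as a whole sat, and small differences below are read against that value. The plot of mean signals shows the bulk of genes just above the line of equal signal, with 2 wings of genes with large tissue differences.

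**Figure D1:**
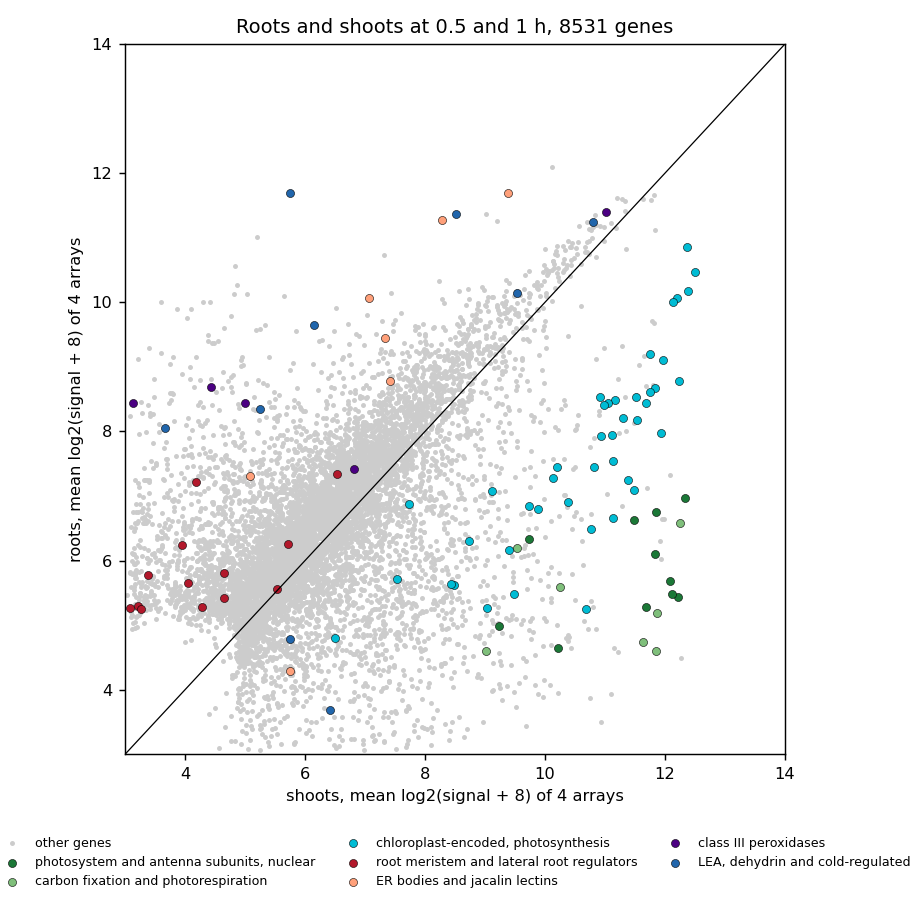
Mean log2(signal + 8) of 8531 genes, roots on the vertical axis and shoots on the horizontal axis, each over 4 arrays at 0.5 and 1 h. Coloured points are the tested genes of 7 groups and the line marks equal signal. Photosynthesis genes lie far below the line, while most LEA, ER body, peroxidase and root regulator genes lie above it.

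Nuclear genes for the photosynthetic machinery were far lower in roots. All 11 named subunits of the photosystems, their antennae and the chloroplast ATP synthase were lower in roots, with a median difference of -5.57 and a range of -6.77 to -3.40. PSAE-1, a peripheral subunit of photosystem I, had signals of 40.1, 33.9, 35.1 and 33.3 in roots, against 4754, 5389, 4523 and 4417 in shoots. LHCB4.2, a form of the minor antenna protein CP29 of photosystem II, had 44.5, 39.6, 30.5 and 33.4 in roots, against 4089, 4889, 4179 and 4699 in shoots. Each shoot array was above each root array for both genes, at both times. The difference was -6.77 ± 0.09 for PSAE-1 (adjusted p = 3.0e-10) and -6.64 ± 0.11 for LHCB4.2 (adjusted p = 4.0e-10). The other CP29 genes stood at -5.37 (LHCB4.1) and -4.25 (LHCB4.3). PSBY, PSBW and PSB27, small or assembly proteins of photosystem II, stood at -6.40, -5.74 and -4.86, and PSAN, a lumenal subunit of photosystem I, at -6.41. The smallest difference in the group was that of LIL3:2, a light-harvesting-like protein that serves chlorophyll synthesis, at -3.40 ± 0.08, and its close relative LIL3:1 was at -5.57 ± 0.14.

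Carbon fixation and photorespiration followed the same pattern, with 7 of 7 tested genes lower in roots and a median of -5.66. PRK, the phosphoribulokinase that regenerates the acceptor of carbon dioxide, had signals of 15.7, 24, 17.1 and 10.4 in roots, against 3547, 3708, 3715 and 3841 in shoots. SBPASE, the sedoheptulose bisphosphatase of the same cycle, had 16.6, 23.3, 19.0 and 16.1 in roots, against 2985, 3356, 3029 and 3378 in shoots. HPR, the peroxisomal hydroxypyruvate reductase of photorespiration, had 36.2, 30.4, 27.4 and 21.8 in roots, against 3667, 3750.2, 3502 and 4048 in shoots. All 4 root arrays of each gene stood far below all 4 shoot arrays, and no array overlapped. The differences were -7.25 ± 0.15, -6.90 ± 0.11 and -6.68 ± 0.11 for PRK, SBPASE and HPR. RCA, rubisco activase, averaged 89.0 ± 14.4 in roots and 4856 ± 416 in shoots (SD, n = 4 each) and stood at -5.66. The redox regulators of the cycle were lower in roots by less: thioredoxin TRXF2 at -4.40 and the thioredoxin reductase NTRC at -3.35. AT5G58330, the NADP-dependent malate dehydrogenase that exports reducing power, was at -4.67.

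Proteins that assemble the thylakoid complexes or carry electrons between them covered a wider range. Of 28 tested genes, 26 were lower in roots, 1 was higher and 1 did not pass, with a median of -2.62. CaS, a calcium-binding protein of the thylakoid membrane, had signals of 16.8, 16.8, 16.6 and 14.4 in roots, against 2391, 2325, 2224 and 2608 in shoots, a difference of -6.63 ± 0.09. The nuclear subunits of the chloroplast NDH complex, NdhL, NdhN and NdhS, stood at -5.44, -4.80 and -4.56. TROL, which tethers ferredoxin-NADP reductase to the membrane, was at -4.95. Assembly factors were nearer to 0, with LPA1 at -2.1, LPA2 at -2.37 and PAM68 at -2.73, all of photosystem II. The CRR genes, which serve the chloroplast NDH complex, ran from -3.91 for CRR42 to -1.18 for CRR22, and all 5 passed. The gene that was higher in roots was TAAC, a carrier of adenine nucleotides in plastid membranes, at 148, 102, 112 and 104 in roots, against 75.4, 65.5, 91.8 and 67.3 in shoots (difference 0.58 ± 0.15, adjusted p = 0.0071). AT4G38100, the CURT1D member of the family that curves thylakoid margins, did not pass at 0.07 ± 0.16, whereas its relatives AT4G01150 (CURT1A) and AT1G52220 (CURT1C) were at -5.34 and -5.58.

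Pigment synthesis was also lower in roots, in 11 of 12 tested genes, with a median of -2.80. The lowest values were those of genes late on the way to chlorophyll. CHLI2, a subunit of magnesium chelatase, had signals of 0.752, 8.46, 0.832 and 2.46 in roots, against 247, 196, 257 and 265 in shoots. CHLM, the methyltransferase of the following step, had 67.7, 82.0, 74.2 and 62.8 in roots, against 1672, 1752, 1292 and 1556 in shoots. The groups did not overlap for either gene, and the differences were -4.53 ± 0.21 and -4.3 ± 0.11. PORB, a protochlorophyllide reductase, was at -3.86 and AT1G74470, geranylgeranyl reductase, at -4.58. Steps that heme shares with chlorophyll were less far apart, with GSA1 at -1.71, HEMB1 at -2.30, HEME1 at -2.69 and HEME2 at -3.80. HEMA2, a form of glutamyl-tRNA reductase at the start of the path, was the exception, with 129, 113, 86.7 and 71.8 in roots, against 68.1, 83.1, 97.2 and 70.0 in shoots. Its arrays overlapped between tissues and the difference of 0.28 ± 0.17 did not pass (adjusted p = 0.17). The carotenoid genes LYC and Z-ISO stood at -2.0 and -1.85.

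Transcripts of the chloroplast genome were lower in roots throughout. All 43 tested chloroplast-encoded photosynthesis genes passed in that direction, with a median of -2.98 and a range of -5.42 to -0.86. All 26 tested chloroplast genes of other functions, mostly ribosomal proteins and RNA polymerase subunits, were lower too, with a median of -2.48 and a range of -3.36 to -0.68. psbA, for the D1 protein of photosystem II, had signals of 104, 98.3, 100 and 74.2 in roots, against 2184, 2282, 2545 and 1960.1 in shoots. rbcL, for the large subunit of rubisco, had 119.8, 126, 98.9 and 74.4 in roots, against 1099.8, 1068, 783 and 819 in shoots. psaB, a core protein of photosystem I, had 1723, 1938, 1943 and 1785 in roots, against 4626, 5812, 5460.2 and 5303 in shoots. All 3 were separated without overlap, by the widest factor for psbA. The differences were -4.46 ± 0.12 for psbA, -3.08 ± 0.10 for rbcL and -1.51 ± 0.09 for psaB. Genes of one protein complex differed widely, as in the ATP synthase, where atpF stood at -4.28, atpA at -4.15, atpH at -3.1, atpE at -2.21 and atpB at -2.02. The NDH genes ran from -5.42 for ndhJ to -1.7 for ndhF. In the second set rpl33 (-3.36) and ccsA (-3.25) stood lowest, and rps14 (-0.68) and rps3 (-1.69) highest. No chloroplast-encoded gene was higher in roots under quantile normalization or median scaling.

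**Figure D2:**
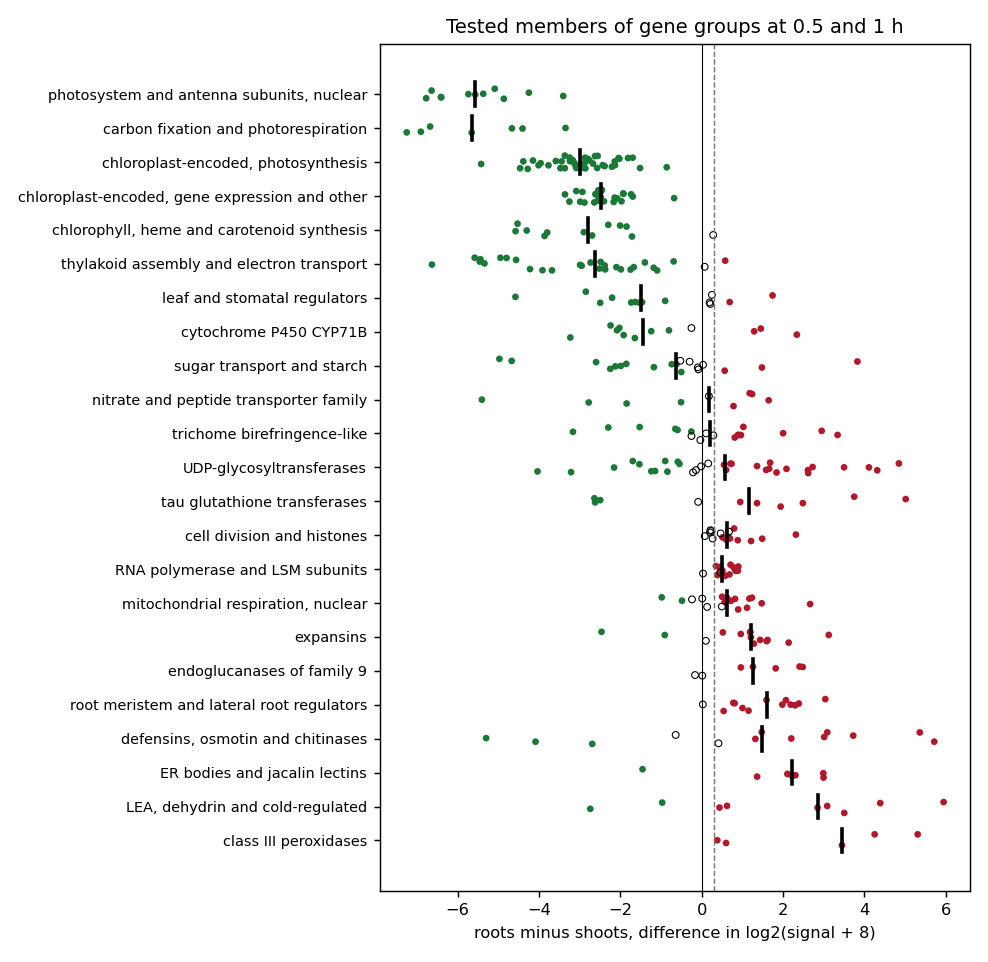
Difference in log2(signal + 8), roots minus shoots, of each tested gene in 23 groups. Red points were higher and green points lower in roots at an adjusted p of 0.05, open circles did not pass, black bars are group medians and the dashed line is the median of all tested genes, 0.29. Group medians run from -5.66 for carbon fixation to 3.45 for class III peroxidases.

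On this scale the named gene with the most negative difference was ECS1, with signals of 10.8, 31.2, 15.6 and 6.97 in roots, against 4591, 4871, 5499 and 4772 in shoots. Every root array read far below every shoot array, a difference of -7.77 ± 0.25 (adjusted p = 1.3e-08). Of the 15 named genes lowest in roots, 8 belong to photosynthesis or photorespiration as described above. Of the rest, 6 have only a locus name in the annotation: AT1G23130 (-7.43), AT1G09310 (-7.17), AT2G10940 (-6.87), AT3G47070 (-6.51), AT1G67865 (-6.26) and AT3G48420 (-6.25). AT1G23130 had 5.22, 1.77, 2.1 and 4.80 in roots, against 1895, 1922, 1929 and 2095 in shoots, the widest gap among these 6.

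Regulators of leaf and stomatal development were lower in roots in 9 of 14 tested genes (15 were named on the array) and higher in 2, with a median of -1.5. Among all tested genes 24.0% were lower and 48.6% higher. STOMAGEN, a peptide from the leaf mesophyll that promotes stomata, had signals of 4.38, 3.69, 1.51 and 1.11 in roots, against 278, 250.3, 208 and 248 in shoots, the lowest of the group at -4.58 ± 0.11. YAB3 and YAB5, YABBY factors of the lower leaf side, stood at -2.85 and -2.5. SPCH, which starts the stomatal lineage, had 1.55, 1.81, 0.982 and 0.677 in roots, against 24.5, 4.02, 36.3 and 31.1 in shoots. The second shoot array at 0.5 h was low for SPCH, and the difference was -1.63 ± 0.35 (adjusted p = 0.0027). TRY, which acts in trichome spacing, had 17.0, 13.4, 13.8 and 13.9 in roots, against 42.1, 46.3, 88.4 and 110.1 in shoots. GIS, which acts in trichome initiation, had 4.68, 9.58, 9.0 and 4.53 in roots, against 31.7, 39.0, 101 and 97.1 in shoots. Both were lower in roots, at -1.73 ± 0.22 and -2.2 ± 0.28, and both read higher on the shoot arrays at 1 h than at 0.5 h, a change that passed in shoots (adjusted p = 0.0095 and 0.012). That call was lost for TRY without the second shoot array at 1 h, and for GIS without either (adjusted p up to 0.074 and 0.082). LEP, an AP2 factor named after its effect on the leaf petiole, went the other way, with 174, 204, 212 and 239 in roots, against 53.8, 74.4, 47.4 and 51.2 in shoots and a difference of 1.74 ± 0.15. AN, a regulator of cell shape, was also higher in roots at 0.69 ± 0.12.

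Root regulators formed the opposite set, with 12 of 13 tested genes higher in roots, 0 lower and a median of 1.60 (15 were named on the array). Over all tested genes 48.6% were higher and 24.0% lower. UPB1, a bHLH factor that represses peroxidases where root cells stop dividing, had signals of 132, 169, 124 and 145 in roots, against 11.5, 25.4, 3.71 and 6.33 in shoots. JKD, a zinc finger protein of root ground tissue patterning, had 54.4, 63.0, 35.5 and 38.4 in roots, against 2.23, 2.5, 2.07 and 2.97 in shoots. AGL21, a MADS factor of lateral root growth, had 23.1, 27.6, 30.7 and 43.7 in roots, against 0.355, 0.462, 0.470 and 0.561 in shoots. Each of the 3 was separated without overlap. Shoot signals of JKD and AGL21 were only a few units, so these 2 were tested through the root arrays. The differences of the 3 genes were 3.04 ± 0.23, 2.39 ± 0.17 and 2.19 ± 0.18. AGL42 was at 2.29 and BBM, an AP2 factor of the root stem cell niche, at 2.07. The lateral root factors LBD29, LBD16 and PUCHI stood at 1.98, 1.15 and 0.78. LHW, which acts in the root vasculature, and OPS, which acts in the phloem, stood at 0.81 and 1.0. SCL21, a GRAS family gene, did not pass at 0.03 ± 0.14. At an unadjusted p under 0.05 limma also gave 0 root regulators lower in roots.

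None of the root regulators was among the 15 genes that stood highest in roots relative to shoots. On this scale AT4G15390 had the most positive difference, with signals of 1279, 1015, 1029 and 820.0 in roots, against 2.91, 13.9, 1.18 and 1.71 in shoots and a difference of 6.41 ± 0.22 (adjusted p = 1.6e-08). The order among genes with a few units of signal in 1 tissue depends on the added 8. Of the 15 genes highest in roots, 11 are given here by locus name alone, from AT4G15390 to AT1G52070 at 5.33. No role is given for these 11, and they may include members of families described elsewhere. The other 4 were the dehydrin LTI30 (5.95), the coumarin synthesis enzyme F6'H1 (AT3G13610, 5.72), the osmotin OSM34 (5.72) and the defensin PDF2.5 (5.36).

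The group of class III peroxidases, secreted enzymes that act on cell wall phenols and reactive oxygen, had the highest group median, 3.45. All 5 tested genes of the group were higher in roots, of 7 that it holds, against 48.6% of all tested genes. It was put together from gene names and may not hold the whole family, so these values describe the group alone. With quantile normalization 4 passed and with median scaling 3. PRX72 (AT5G66390), a peroxidase of lignin formation, had signals of 301, 291, 340.2 and 447 in roots, against 0.976, 1.36, 0.313 and 0.399 in shoots, so that shoot signals were near 0 on each array. Prx37 had 463, 405, 466 and 311 in roots, against 18.8, 18.2, 16 and 5.17 in shoots. PRX25 (AT2G41480) had 431, 325, 289 and 329.7 in roots, against 26.6, 33.0, 23.6 and 15 in shoots. These 3 did not overlap between tissues and differed by 5.31 ± 0.14, 4.25 ± 0.21 and 3.45 ± 0.15. PRXR1 and PRX71 (AT5G64120) overlapped, at 0.38 ± 0.13 and 0.60 ± 0.20, and lost their call under median scaling. Each also lost it in 4 of the 8 fits that left out 1 array, with adjusted p up to 0.080 and 0.074.

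Genes of ER bodies and their lectin partners were higher in roots in 6 of 7 tested cases, against 48.6% of all tested genes. Their median was 2.22. PYK10, the main beta-glucosidase of root ER bodies, had signals of 3060.0, 3494, 3239.8 and 3376 in roots, against 1028, 867, 487 and 431 in shoots. JAL33, a jacalin-related lectin that binds it, had 1077, 1268, 859 and 1105 in roots, against 195, 157, 96.6 and 85.9 in shoots. JAL34, another such lectin, had 2185, 2582, 2450.4 and 2709.9 in roots, against 457, 371, 168 and 298 in shoots. The roots stood far above the shoots on each array. NAI2, a protein needed to form ER bodies, had 753, 766, 588 and 658 in roots, against 218, 203, 83.4 and 147 in shoots. In roots the change between the times passed for none of these 4, while both shoot arrays at 1 h were below both at 0.5 h. In shoots the change between the times passed for 5 of the 7 genes, against 324 of 8531 genes (3.80%) that fell there over the same time. It was -1.03 ± 0.13 for PYK10 (adjusted p = 0.0022) and -0.88 ± 0.17 for JAL33 (adjusted p = 0.015). Of the 8 fits that left out 1 array, the shoot change of NAI2 lost its call in 7, that of JAL22 in 5, that of JAL33 in 3 and that of NAI1 in 3, with adjusted p up to 0.13, 0.12, 0.097 and 0.081. The tissue differences over both times were 2.31 ± 0.20 for PYK10, 2.99 ± 0.23 for JAL34, 3.0 ± 0.16 for JAL33 and 2.11 ± 0.18 for NAI2. NAI1, the bHLH factor that regulates these genes, was at 2.22 ± 0.25, and JAL22 at 1.36 ± 0.12. JAL23 was the exception, lower in roots at -1.45 ± 0.17.

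Other beta-glucosidases and defence proteins were divided. Of 11 tested beta-glucosidases (21 named), 7 were higher in roots and 4 lower, against 48.6% and 24.0% of all tested genes. BGLU46, which acts on monolignol glucosides, had 238, 211, 174 and 209 in roots, against 7.58, 4.99, 4.66 and 1.49 in shoots and a difference of 4.1 ± 0.14. BGLU33 had 3.14, 3.86, 5.15 and 3.87 in roots, against 125, 94.3, 149 and 147 in shoots and a difference of -3.49 ± 0.13. Signals of the lower tissue were below 8 for both genes. BGLU15 stood at 3.22 and BGLU40 at -3.21. Of 13 tested defensins, osmotins, thionins and chitinases (17 named), 8 were higher in roots and 3 lower, against the same shares. OSM34, an osmotin-like protein, had signals of 1521, 1475, 1483 and 1522 in roots, against 36.9, 54.5, 11.6 and 4.17 in shoots. The root arrays of OSM34 lay close together, and both shoot arrays at 1 h were below those at 0.5 h. PDF2.5 had 454, 632, 589 and 596 in roots, against 2.26, 9.04, 7.91 and 5.29 in shoots, a difference of 5.36 ± 0.17, and PDF2.1 stood at 3.01. The genes lower in roots were the thionin THI2.2 at -5.30 and the defensins PDF1.2b and PDF1.2. PDF1.2b had 9.58, 9.93, 7.38 and 1.18 in roots, against 211, 719, 231 and 89.3 in shoots, with the second shoot array at 0.5 h far above the other 3. The basic chitinase CHI was at 3.73 ± 0.51 and the chitinase ChiC at 2.2 ± 0.23.

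**Figure D3:**
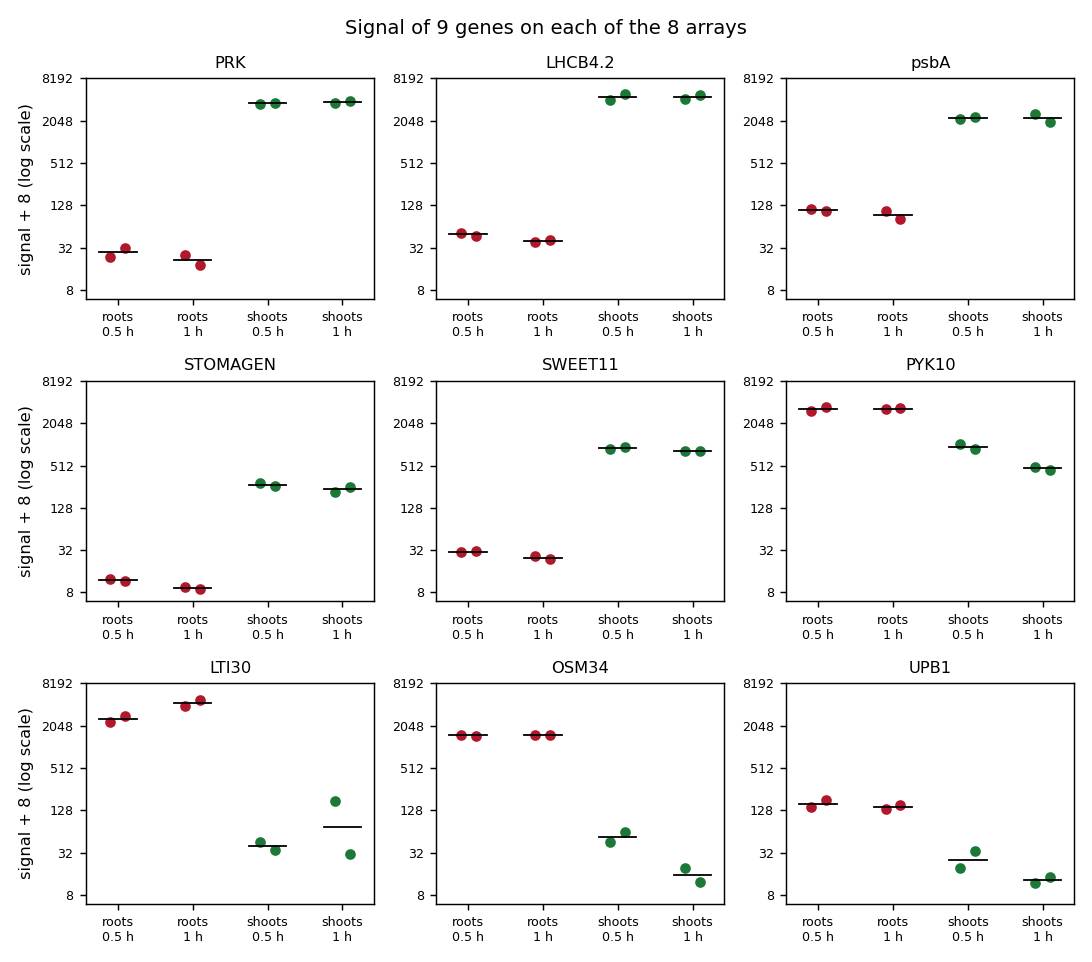
Signal plus 8, on a log axis, of 9 genes on each of the 8 arrays, roots in red left of shoots in green, with the geometric mean of each pair of arrays as a bar. In the first 5 panels both root groups lie far below both shoot groups and in the last 4 above them. PYK10 and OSM34 read lower in shoots at 1 h than at 0.5 h and LTI30 is scattered in shoots at 1 h.

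Of 15 tested mineral nutrition genes (18 named), 9 were higher in roots and 1 lower, or 7 and 2 with quantile normalization. The share higher in roots was near the 48.6% of all tested genes. F6'H1 (AT3G13610), which makes the coumarins that roots secrete when iron is short, had signals of 929, 825, 879 and 814 in roots, against 2.01, 33.4, 8.06 and 3.04 in shoots. One shoot array, the second at 0.5 h, read above the other 3, and none came near the root arrays, so that the difference was 5.72 ± 0.38. Its relative F6'H2 (AT1G55290) stood at 0.69 ± 0.20 with overlapping arrays. MT1C, a metallothionein, had 3803, 4467, 4499.6 and 4666 in roots, against 1061, 1246, 1121 and 978 in shoots and was at 1.98 ± 0.10. LPR1, a ferroxidase of the phosphate response in the root tip, was higher in roots at 1.84 ± 0.21, and its relative LPR2 was lower at -1.26 ± 0.17. Of the bHLH factors of iron regulation, bHLH115 (1.49), bHLH104 (0.63) and PYE (0.59) were higher in roots. ILR3 (0.13), bHLH34 (-0.11) and bHLH121 (-0.33) did not pass.

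In the nitrate and peptide transporter family, 4 of 9 tested genes were higher in roots and 4 lower (10 named). Over all tested genes 48.6% were higher and 24.0% lower. NPF6.4 (AT3G21670) had signals of 15.1, 9.71, 21.1 and 30.2 in roots, against 872, 979.8, 1167 and 1423 in shoots. NPF6.2 (AT2G26690), a nitrate transporter known from leaf petioles, had 43.3, 57.7, 44.7 and 39.9 in roots, against 395, 295, 463 and 319.8 in shoots. Neither overlapped between tissues, and they were lower in roots by the widest margins of the family, at -5.40 ± 0.14 and -2.78 ± 0.16. NPF4.3 (AT1G59740) was highest in roots at 1.65 ± 0.14. Of the glucosinolate importers of this family, GTR2 was at 1.18 ± 0.16, and GTR1, at 0.18 ± 0.16, did not pass.

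Cell wall families each had their own balance. Of 14 tested expansins (19 named), proteins that loosen walls, 11 were higher in roots and 2 lower, with a median of 1.2. Over all tested genes 48.6% were higher and 24.0% lower. EXLA3 had signals of 145, 111, 89.8 and 116 in roots, against 0.993, 7.18, 10.8 and 6.86 in shoots. EXPA4 had 460.4, 335, 391 and 304 in roots, against 51.0, 47.8, 96.8 and 146 in shoots. Both were separated without overlap, at 3.13 ± 0.24 and 2.14 ± 0.27. The root hair expansins EXPA7 and EXPA18 were at 1.44 and 0.96, and their arrays scattered more than most, with 23.2 to 73.8 in roots and 6.52 to 14 in shoots for EXPA7. EXPA8 went the other way with 37.8, 35.5, 29.0 and 28.4 in roots, against 160.4, 174, 168 and 449.7 in shoots, at -2.46 ± 0.30, its second shoot array at 1 h standing above the other 3. Of 7 tested endoglucanases of family 9 (15 named) 5 were higher in roots and 0 lower, against the same shares, with a median of 1.26. At an unadjusted p under 0.05 limma also gave 0 lower, while with either scaling alternative 1 member was lower. GH9C1 and GH9B13 led at 2.49 ± 0.23 and 2.41 ± 0.13.

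Xyloglucan endotransglucosylases had 2 of 7 tested genes higher in roots and 3 lower (10 named), against 48.6% and 24.0% of all tested genes. XTH20 had 99.5, 124, 131 and 146 in roots, against 4.09, 13.2, 8.63 and 12.3 in shoots. XTH32 had 35.3, 45.0, 36.9 and 52.1 in roots, against 344, 255, 383 and 435 in shoots. The 2 genes stood at 2.94 ± 0.18 and -2.83 ± 0.15. The trichome birefringence-like proteins, which act in wall acetylation, numbered 8 higher and 6 lower of 18 tested (24 named). Over all tested genes 48.6% were higher and 24.0% lower. TBL36 (3.34) and TBL39 (2.95) stood at one end and TBL45 (-3.16) at the other. Their median of 0.20 was below that of all tested genes and was 0.00 with quantile normalization.

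Lignin and flavonoid enzymes were divided. Of 14 tested genes (15 named), 8 were higher in roots and 5 lower, against 48.6% and 24.0% of all tested genes. UGT72E2, a glucosyltransferase of monolignols, had signals of 974, 732, 818 and 693 in roots, against 29.0, 43.1, 33.5 and 26.0 in shoots. CCR2, a cinnamoyl-CoA reductase, had 234, 186, 222 and 249 in roots, against 7.59, 14.6, 34.5 and 32.6 in shoots. Both were separated without overlap, at 4.32 ± 0.14 and 3.04 ± 0.22. UGT72E1 and UGT72E3, the other monolignol glucosyltransferases, stood at 1.58 and 2.09. On the flavonoid side UGT78D1, a flavonol rhamnosyltransferase, had 21.2, 25.8, 20 and 14.6 in roots, against 113, 58.5, 164 and 168 in shoots and was at -2.15 ± 0.28, and DFR, of anthocyanin synthesis, was at -1.42 ± 0.33. UGT84A3 was lower in roots at -1.69 ± 0.24.

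LEA genes and their kin differed between the tissues at these early times. Of 9 tested LEA, dehydrin and cold-regulated genes (11 named), 7 were higher in roots and 2 lower, with a median of 2.85. Over all tested genes 48.6% were higher and 24.0% lower. LTI30, a dehydrin, had signals of 2339.9, 2821, 3877 and 4666 in roots, against 36.9, 26.6, 167 and 22.4 in shoots. Each root array was above each shoot array, and the first shoot array at 1 h was the highest of the 4. LEA4-5 had 105, 113, 333 and 1051 in roots, against 3.95, 2.29, 12.6 and 2.1 in shoots, and its second root array at 1 h was the highest of the 8. COR47, another dehydrin, had 1839, 2075, 2989 and 4248 in roots, against 305, 279.9, 582 and 333 in shoots. DI21, a LEA protein, had 682, 758, 869.7 and 892 in roots, against 63.9, 37.4, 75.9 and 83.2 in shoots. Roots and shoots did not overlap for any of these 4. The differences were 5.95 ± 0.44, 4.39 ± 0.48, 2.85 ± 0.18 and 3.51 ± 0.15. LEA27 (AT2G46140) stood at 3.09, and the more evenly expressed HIRD11 (AT1G54410) and LEA26 (AT2G44060) at 0.44 and 0.62. COR15A, a protein of the chloroplast stroma that protects membranes in the cold, had 6.89, 1.82, 1.35 and 12 in roots, against 28.3, 24.5, 385 and 109 in shoots. It was lower in roots at -2.74 ± 0.57 (adjusted p = 0.0020), and its close relative COR15B was at -0.97 ± 0.37 (adjusted p = 0.040). For both, the shoot arrays at 1 h were above those at 0.5 h, and the 2 arrays at 1 h lay far apart. The call of COR15B was lost in 5 of the 8 fits that left out 1 array (adjusted p up to 0.11).

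Early stress and calcium signalling genes were higher in roots in 10 of 18 tested cases and lower in 3, against 48.6% and 24.0% of all tested genes, with a median of 1.04. WRKY6 had signals of 320.3, 239.7, 347 and 366 in roots, against 18.6, 89.4, 26.1 and 10.5 in shoots. GRX480, a glutaredoxin, had 309.6, 223, 207 and 166 in roots, against 15.8, 40.2, 36.6 and 11.7 in shoots. All 4 root arrays of each gene were above all 4 shoot arrays, at 3.2 ± 0.43 and 2.86 ± 0.30. The calmodulin-like genes CML43 (2.52), CML23 (2.29) and CML38 (1.87) were higher in roots, and CML30 (-0.74) and CML42 (-0.63) lower. The U-box ubiquitin ligases PUB22, PUB23 and PUB24 were at 1.40, 1.52 and 1.03. CML42 lost its call in 5 of the 8 fits that left out 1 array and PUB24 in 2, with adjusted p up to 0.079 and 0.057. WRKY53, a regulator of leaf senescence, had 80.4, 89.2, 77.5 and 56.9 in roots, against 79.6, 278, 238 and 211 in shoots and was lower in roots at -1.21 ± 0.34. STZ, a zinc finger factor of salt and cold responses, had 693, 519.7, 617 and 426 in roots, against 91.9, 581, 967 and 518 in shoots. The first shoot array at 0.5 h was far below the other 3 for both WRKY53 and STZ, and the difference of STZ, 0.43 ± 0.57, did not pass (adjusted p = 0.51).

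Sugar transport and starch metabolism was mostly lower in roots, with 11 of 19 tested genes lower and 3 higher (26 named). Among all tested genes 24.0% were lower and 48.6% higher. With either scaling alternative 13 of the group were lower and 2 higher. SWEET11, a sucrose exporter that feeds phloem loading in leaves, had signals of 22.1, 22.8, 18.7 and 15.6 in roots, against 876, 918, 819.5 and 829 in shoots. ATSPS4F, a sucrose phosphate synthase, had 13.2, 7.32, 11.8 and 9.88 in roots, against 513, 495, 302 and 589 in shoots. Root signals were low on each array for both and no array overlapped, with differences of -4.97 ± 0.09 and -4.67 ± 0.21. SBE2.2, a starch branching enzyme, stood at -2.25 ± 0.09 and APL3, a subunit of ADP-glucose pyrophosphorylase, at -1.17 ± 0.17. The genes higher in roots were cwINV6, of the cell wall invertase family, the vacuolar sugar transporter TMT1 and the vacuolar SWEET16. cwINV6 had 436, 346, 646 and 220.1 in roots, against 14.2, 31.1, 16.3 and 19.1 in shoots and was at 3.83 ± 0.31. TMT1 stood at 1.48 ± 0.13 and SWEET16, with overlapping arrays, at 0.57 ± 0.16.

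Detoxification families, which conjugate foreign and defence compounds, held single genes with strong differences of both signs. Of 10 tested tau glutathione transferases (11 named), 6 were higher in roots and 3 lower, against 48.6% and 24.0% of all tested genes. GSTU22 had 651, 602, 809.8 and 621 in roots, against 11.3, 12.6, 19.5 and 9.18 in shoots. GSTU25 had 207, 159, 222 and 241 in roots, against 5.75, 13.0, 6.70 and 6.76 in shoots. Neither overlapped, and they stood at 5.02 ± 0.16 and 3.75 ± 0.18. GSTU20, GSTU16 and GSTU18 were lower in roots, at -2.62, -2.64 and -2.49. Of 32 tested UDP-glycosyltransferases (47 named), 17 were higher in roots and 11 lower, against the same shares of all tested genes. UGT76B1 had 320.0, 229, 675 and 421 in roots, against 2.87, 15.1, 5.45 and 1.74 in shoots, at 4.85 ± 0.35. UGT73B4 and UGT71C1 stood at 4.11 and 3.50. UGT88A1 had 57.1, 47.1, 43.1 and 34.5 in roots, against 982, 1041, 736 and 721 in shoots and was lower in roots at -4.04 ± 0.10, followed by UGT76E11 at -3.21.

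The cytochromes P450 of subfamily CYP71B leaned to shoots, with 8 of 12 tested genes lower in roots and 3 higher (18 named) and a median of -1.44. Among all tested genes 24.0% were lower and 48.6% higher. CYP71B5 stood lowest at -3.23 ± 0.16 and CYP71B23 highest at 2.34 ± 0.44. Serine carboxypeptidase-like genes had 8 higher and 5 lower of 17 tested (29 named), near the 48.6% and 24.0% of all tested genes. Their median of 0.00 was -0.23 with quantile normalization. Of 6 tested glucosinolate genes (7 named) 3 were higher in roots and 2 lower, against the same shares. AOP1 was at -1.05, and BCAT4, an aminotransferase of methionine chain elongation, at 0.52 ± 0.21 with overlapping arrays and a call that was lost in 6 of the 8 fits that left out 1 array (adjusted p up to 0.13).

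Among hormone genes, 6 of 16 tested were higher in roots and 5 lower (25 named), against 48.6% and 24.0% of all tested genes. GH3.3, GH3.17 and WES1, enzymes that join auxin to amino acids, were all higher in roots. GH3.3 had 517, 585, 798 and 404 in roots, against 18.2, 12.7, 69.1 and 68.3 in shoots. GH3.17 had 379, 295, 453 and 426 in roots, against 39.9, 33.2, 30.6 and 44.1 in shoots. Neither overlapped, at 3.75 ± 0.34 and 3.13 ± 0.14, and WES1 was at 1.59 ± 0.18. Of the 3 gibberellin receptors, GID1B was at 2.69 ± 0.23, GID1A at 0.61 ± 0.11 and GID1C, at -0.18 ± 0.21, did not pass. The cytokinin response regulators ARR15 and RR16 were lower in roots, at -1.37 ± 0.14 and -1.47 ± 0.27.

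Genes of growth and basic cell functions differed by less. Of 16 tested genes of cell division and histones, 9 were higher in roots and 0 lower, against 48.6% and 24.0% of all tested genes, with a median of 0.62. At an unadjusted p under 0.05 limma gave 10 higher and 0 lower. SIM, an inhibitor of cyclin-dependent kinases that favours endoreduplication, led with 204, 263, 184 and 213 in roots, against 43.3, 28.1, 41.2 and 35.4 in shoots and a difference of 2.32 ± 0.15. The aurora kinases AUR1, AUR2 and AUR3 stood at 0.80, 1.22 and 0.70, and TOPII, topoisomerase II, at 1.49. At 0.5 h alone 15 of the 16 were higher in roots and at 1 h alone 2, against 44.7% and 40.3% of all tested genes at the same times. No member passed limma's test of a change in the difference between the times (4 did at an unadjusted p under 0.05), against 219 of 8531 genes (2.57%). The second shoot array at 0.5 h was the lowest of the 8 for AUR1, AUR2 and TOPII.

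Subunits of the nuclear RNA polymerases and LSM proteins of RNA decay and splicing were higher in roots in 14 of 16 tested cases (17 named). The share among all tested genes was 48.6%. The subunits and LSM proteins had a narrow range of 0.03 to 0.90 and a median of 0.51. LSM3B (0.90) and NRPB12 (0.89) stood highest. With quantile normalization or median scaling 11 passed. Exocyst and ESCRT trafficking subunits were higher in 11 of 20 and lower in 0, against 48.6% and 24.0% of all tested genes. Their median of 0.34 was close to that of all genes. At an unadjusted p under 0.05 limma gave 14 higher and 0 lower, and 8 and 7 passed with quantile normalization and median scaling. VPS20.1 was the largest of these at 1.47 ± 0.11. Of 7 tubulins 6 were higher in roots, against 48.6% of all tested genes, up to TUB1 at 1.98 ± 0.22. TUA1 was lower at -1.22 ± 0.10, and with median scaling 4 tubulins were higher.

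Nuclear genes of mitochondrial respiration were higher in roots in 11 of 17 cases and lower in 2, against 48.6% and 24.0% of all tested genes. NDB2, an alternative NADH dehydrogenase, had 369.6, 344, 590.4 and 696 in roots, against 44.3, 72.3, 129 and 51.7 in shoots and was at 2.67 ± 0.25. Of succinate dehydrogenase, SDH1-1 was at 1.48 ± 0.14, SDH2-1 at 1.24 ± 0.08 and SDH2-2 at 0.90 ± 0.10. MCCA and MCCB, the subunits of methylcrotonyl-CoA carboxylase in leucine breakdown, were lower in roots at -0.98 and -0.48, with overlapping arrays, and MCCB lost its call in 3 of the 8 fits that left out 1 array (adjusted p up to 0.060). Mitochondrion-encoded transcripts were near the level of all genes. Of 11 tested (14 named) 6 were higher and 1 lower as deposited, with a median of 0.33, and 2 were higher and 2 lower with either scaling alternative.

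Genes often used to normalise PCR in this plant gave 2 higher and 1 lower of 8, with a median of -0.11. This count depended on scaling, with 3 higher and 2 lower after quantile normalization and 1 higher and 5 lower after median scaling. GAPC2, a cytosolic glyceraldehyde phosphate dehydrogenase, had 2993, 3021, 3174 and 3043 in roots, against 3359, 3899, 3234 and 3467 in shoots. MON1 (AT2G28390) had 109.8, 122, 112 and 113 in roots, against 100, 85.9, 109 and 99.5 in shoots. GAPC2 at -0.19 ± 0.08 and MON1 at 0.20 ± 0.10 did not pass, and with quantile normalization GAPC2 was at 0.56, higher in roots. PEX4, a ubiquitin-conjugating enzyme, was higher in roots at 0.43 ± 0.09, and AT4G33380 lower at -1.21 ± 0.28, with the second shoot array at 1 h far above the others.

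The tissue difference was also taken at each time on its own. At 0.5 h 10794 probe sets (68.0%) and 5695 genes (66.8%) passed, with 3815 genes (44.7%) higher in roots and 1880 (22.0%) lower. At 1 h 10192 probe sets (64.2%) and 5367 genes (62.9%) passed, with 3437 genes (40.3%) higher and 1930 (22.6%) lower. Of the 6186 genes called over both times, 4538 passed at both times in the same direction. A test of whether the difference changed between 0.5 and 1 h called 456 probe sets (2.87%), 303 (1.91%) more positive at 1 h and 153 (0.964%) more negative. It called 219 of 8531 genes (2.57%), of which 146 (1.71%) had a more positive difference at 1 h and 73 (0.856%) a more negative one. In 191 of these 219 genes the shoots changed between the times, in 8 the roots did, and in 3 both. Over all genes the shoots changed in 533 of 8531 (6.25%), with 209 up (2.45%) and 324 down (3.80%), and the roots in 12 (0.141%). The gap was smaller at an unadjusted p under 0.05 in limma, with 3221 probe sets in shoots and 1954 in roots. In a fit of all 24 arrays 1488 and 127 passed the adjusted threshold. Without the first root array at 0.5 h the test of a changed difference called 150 probe sets, and without the first shoot array at 0.5 h it called 720. The shoot count was 1092 probe sets (6.88%) over the array, 450 up (2.83%) and 642 down (4.04%), and 611, 616 and 723 without the second or first shoot array at 1 h or the second at 0.5 h. The root count was 26 probe sets (0.164%) over the array, 23 up (0.145%) and 3 down (0.0189%), and 0 without either root array at 0.5 h or without the second at 1 h, with 1329, 1015 and 1137 probe sets at an unadjusted p under 0.05 in limma.

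The strongest shifts came from transcripts that fell in shoots between 0.5 and 1 h. AT2G20670 had signals of 41.4, 51.5, 41.4 and 86.5 in roots, against 1432, 1664, 22.2 and 21.6 in shoots. AT1G33055 had 219.7, 305, 219 and 744 in roots, against 209.7, 297, 1.94 and 3.02 in shoots. The factor DEWAX (AT5G61590), a repressor of wax synthesis, had 87.9, 155, 126 and 143 in roots, against 781, 795, 33.3 and 33.9 in shoots. Both shoot arrays at 1 h were far below both at 0.5 h in all 3 genes, while the root arrays overlapped between the times. For AT2G20670 the tissue difference was -4.84 at 0.5 h and 1.19 at 1 h, a shift of 6.03 ± 0.38 (adjusted p = 0.00030). For AT1G33055 it was 0.05 and 5.30 at these times, a shift of 5.25 ± 0.65 (adjusted p = 0.0049). For DEWAX it was -2.67 and 1.78, a shift of 4.45 ± 0.31. AT1G23390 (3.71) and AT5G19120 (3.47) moved the same way. The difference over both times was -1.82 ± 1.04 for AT2G20670 and -0.45 ± 0.77 for DEWAX, and neither passed.

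In the other direction stood transcripts that rose in shoots. CML37, a calmodulin-like protein, had signals of 70.3, 53.1, 48.6 and 35 in roots, against 2.87, 6.61, 109 and 61.6 in shoots. Its difference was 2.46 at 0.5 h and -0.87 at 1 h, a shift of -3.33 ± 0.40 (adjusted p = 0.0045). PUB19, a U-box ubiquitin ligase of the drought response, had 541, 492, 649 and 917 in roots, against 19.8, 25.4, 258 and 193 in shoots. The roots of PUB19 were above all shoot arrays at both times, and the shoots came closer at 1 h, for a shift of -2.35 ± 0.28 (adjusted p = 0.0045). QQS, a small protein that affects leaf starch, had 17.1, 53.8, 23.7 and 15.1 in roots, against 97.4, 76.6, 378 and 430.2 in shoots and moved by -2.66 ± 0.51. AT5G12940 (-3.33), AT2G15020 (-3.24), AT1G14480 (-3.04) and AT3G01830 (-3.04) completed the 5 largest. The calls of QQS and AT3G01830 were lost in 5 and 6 of the 8 fits that left out 1 array (adjusted p up to 0.12 and 0.13). In 107 of the 219 genes the tissue difference had opposite signs at the 2 times, and in 53 of these it passed at both.

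Some members of the wall families took part. GH9C2 had 568, 502, 568 and 650.3 in roots, against 166, 102, 601 and 656 in shoots, so that roots were above shoots at 0.5 h and not at 1 h, with a shift of -2.02 ± 0.29. EXGT-A3, an endotransglucosylase, had 138, 142, 163 and 185 in roots, against 1230.2, 1243, 294 and 278 in shoots, with a shift of 2.38 ± 0.16. EXLA2 moved by 2.08 ± 0.37 and EXPA15 by -1.66 ± 0.18. OSM34 changed by -1.78 ± 0.23 in shoots, for a shift of 1.78 ± 0.32 (adjusted p = 0.025). OSM34 lost this call in 6 of the 8 fits that left out 1 array, EXLA2 in 4 and GH9C2 in 1, with adjusted p up to 0.11, 0.092 and 0.053. Of the photosystem, carbon fixation, thylakoid, pigment and chloroplast-encoded genes 0 passed this test in limma, against 2.57% of all tested genes. At an unadjusted p under 0.05 the counts were 1, 0, 3 and 2, and 3 and 1 for the photosynthesis and other chloroplast-encoded genes, against 1334 of all tested.

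**Figure D4:**
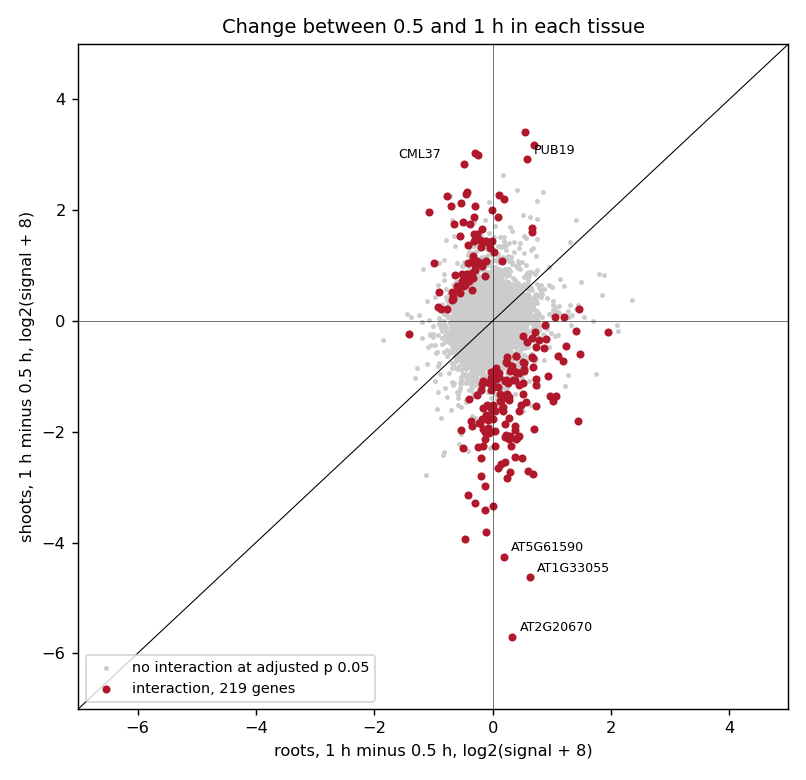
Change in log2(signal + 8) between 0.5 and 1 h of 8531 genes, roots on the horizontal axis and shoots on the vertical axis. Red points are the 219 genes whose tissue difference changed at an adjusted p of 0.05. They are spread along the shoot axis, down to -5.70 for AT2G20670, and few of them lie far from 0 on the root axis.

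Among the 12 genes that changed in roots, 10 were higher at 1 h (0.117% of tested genes) and 2 lower (0.0234%). The lower ones were GSTU27, with 219, 225, 87.2 and 69.9 in roots, against 175, 136, 144 and 116 in shoots and a change of -1.42 ± 0.17, and AT3G22210 at -1.1 ± 0.15. The higher ones all have only a locus name, and they may include members of families described elsewhere. AT1G68500 had 48.3, 40.3, 196 and 192 in roots, against 24.9, 25, 26.6 and 16.1 in shoots, a change of 1.96 ± 0.19 in roots (adjusted p = 0.010) and of -0.19 ± 0.19 in shoots. AT3G51750 followed at 1.89 ± 0.27 and AT2G41190 at 1.84 ± 0.25. Then came AT5G64250 (1.46), AT1G21790 (1.44), AT1G53560 (1.24), AT5G61820 (1.21), AT4G09760 (1.19), AT4G38410 (1.11) and AT4G38810 (1.05). Both root arrays at 1 h were above both at 0.5 h in each of these 10. Of the 8 fits that left out 1 array, AT1G68500 and AT1G53560 lost their call in 3 and each of the other rises in 5 to 7. Of the falls, GSTU27 lost its call in 5 and AT3G22210 in 8.

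The early tissue difference was then set beside those at 3 and 6 h and at 12 and 24 h, in one fit of all 24 arrays. The difference at 0.5 and 1 h was not that at 12 and 24 h in 7882 of 16814 probe sets (46.9%) and 4099 of 9094 genes (45.1%), with 2050 genes (22.5%) more positive early and 2049 (22.5%) more negative. Against 3 and 6 h it was 5861 probe sets (34.9%) and 2983 genes (32.8%), 1514 (16.6%) more positive early and 1469 (16.2%) more negative. The arrays at 24 h fall near the clock hour of the early ones. Those at 3, 6 and 12 h fall at other hours, and for these time in mannitol and time of day cannot be told apart.

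The LEA, dehydrin and cold-regulated genes of the group moved together. All 9 tested members had a more positive difference at 0.5 and 1 h than at 3 and 6 h, where 16.6% of all genes did so. The same 9 were more positive early than at 12 and 24 h, where 22.5% of all genes were. The group was put together from gene names, so it may not hold every gene of these families. Genes given elsewhere by locus name alone may belong to them and need not have moved this way. The median difference of the 9 was 2.85 at 0.5 and 1 h, 0.20 at 3 and 6 h and -0.31 at 12 and 24 h. LTI30 had signals of 3686, 3902, 3511 and 4035 in roots, against 3125, 2639, 5236 and 4051 in shoots at 12 and 24 h, in the order of the arrays. The tissues overlapped by then, and its difference was 5.95, 1.40 and 0.05 over the 3 periods, an early minus late value of 5.90 ± 0.46 (adjusted p = 2.4e-08). LEA4-5 had 722, 746, 683 and 650.1 in roots, against 2670.0, 2824, 3508 and 2661 in shoots at 12 and 24 h. Shoots were by then above roots, and its early minus late value was 6.43 ± 0.37 (adjusted p = 1.1e-09). COR15B had 54.7, 23.6, 38.0 and 29.2 in roots, against 1563, 1187, 2977 and 1710.2 in shoots at 3 and 6 h, with every shoot array far above every root array, and its early minus middle value was 4.39 ± 0.36.

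Photosynthesis genes moved the other way against 12 and 24 h, with a more negative difference early. This held for 11 of 11 tested photosystem and antenna genes, 7 of 7 of carbon fixation, 11 of 12 of pigment synthesis, 31 of 43 chloroplast-encoded photosynthesis genes and 21 of 26 other chloroplast genes, where 22.5% of all genes did so. Against 3 and 6 h a more negative early difference passed in fewer: 5 of 11 photosystem, 5 of 7 carbon fixation, 6 of 12 pigment, 4 of 43 chloroplast-encoded photosynthesis and 5 of 26 other chloroplast genes, where 16.2% of all genes did so. The photosystem median was -5.57, -4.82 and -3.82 over the 3 periods, and that of carbon fixation -5.66, -5.34 and -3.80. PSBY had signals of 58.9, 65.6, 93.2 and 83.7 in roots, against 858, 1176, 1056 and 1644 in shoots at 12 and 24 h, still far apart, and an early minus late value of -2.59 ± 0.18. CHLM had 75.0, 74.6, 68.0 and 63.1 in roots, against 269, 274, 146 and 232 in shoots at these times and -2.73 ± 0.16. Of 28 tested thylakoid genes, 21 had a more negative early difference against 12 and 24 h and 2 a more positive one. Against 3 and 6 h the counts were 9 and 3. PIFI and PGRL1B, which act in electron flow around photosystem I, were among those with a more positive early value, at 0.67 ± 0.20 and 0.60 ± 0.15. The call of PIFI against 3 and 6 h was lost in 2 of the 16 fits that left out 1 array. Calls of a more negative early difference against 3 and 6 h were lost too. GSA1 and LYC each lost theirs in 7 of the 16 fits, rpl33 in 5, CHLI2 in 3 and PRK in 2. Against 12 and 24 h Z-ISO lost its call in 9.

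Of the 7 ER body genes, 6 were higher in roots and JAL23 lower in each of the 3 periods. Their median difference was 2.22, 3.05 and 3.40 over the 3 periods. Of the 7, 5 were more negative early than late, where 22.5% of all genes were. PYK10 had 3957, 3713, 3723 and 3721 in roots, against 213, 323, 364 and 357 in shoots at 12 and 24 h, with an early minus late value of -1.28 ± 0.17. Root regulators had medians of 1.60, 1.34 and 1.36. The early difference departed from that at 3 and 6 h in 2 of 13, where it did in 32.8% of all genes. Against 12 and 24 h it also did so in 2 of 13, where it did in 45.1% of all genes. The expansin median was 1.2, 0.23 and 0.39.

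Single genes moved furthest. SWEET2, a vacuolar sugar transporter that acts in roots, was lower in roots early and had 289.6, 281, 248 and 296 in roots, against 45.8, 54.5, 21.6 and 22.7 in shoots at 3 and 6 h. Its difference was -1.85 early and 2.78 at 3 and 6 h, an early minus middle value of -4.63 ± 0.24 (adjusted p = 1.5e-09). PUB19 had 414, 319, 189.7 and 247 in roots, against 1516, 1344, 1111 and 801 in shoots at 3 and 6 h and crossed the other way, with 4.94 ± 0.25 (adjusted p = 1.2e-09). EXPA16 had 2.7, 4.99, 10.5 and 3.44 in roots, against 327, 292, 926 and 834 in shoots at 3 and 6 h, well apart, and 4.43 ± 0.32. GAT1_2.1 was higher in roots by more at 3 and 6 h, with 223, 398, 299 and 508 in roots, against 2.15, 2.23, 1.9 and 1.75 in shoots and an early minus middle value of -3.51 ± 0.56. AT5G28520 was low in both tissues early and had 617, 419, 1597 and 1371 in roots, against 2.17, 6.85, 5.13 and 3.99 in shoots at 12 and 24 h, an early minus late value of -5.75 ± 0.29. AT1G57590 had 30.9, 26.4, 48.6 and 85.6 in roots, against 1397, 1030.4, 2587 and 1903 in shoots at 12 and 24 h, with shoots far above roots, and an early minus late value of 6.3 ± 0.34.

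**Figure D5:**
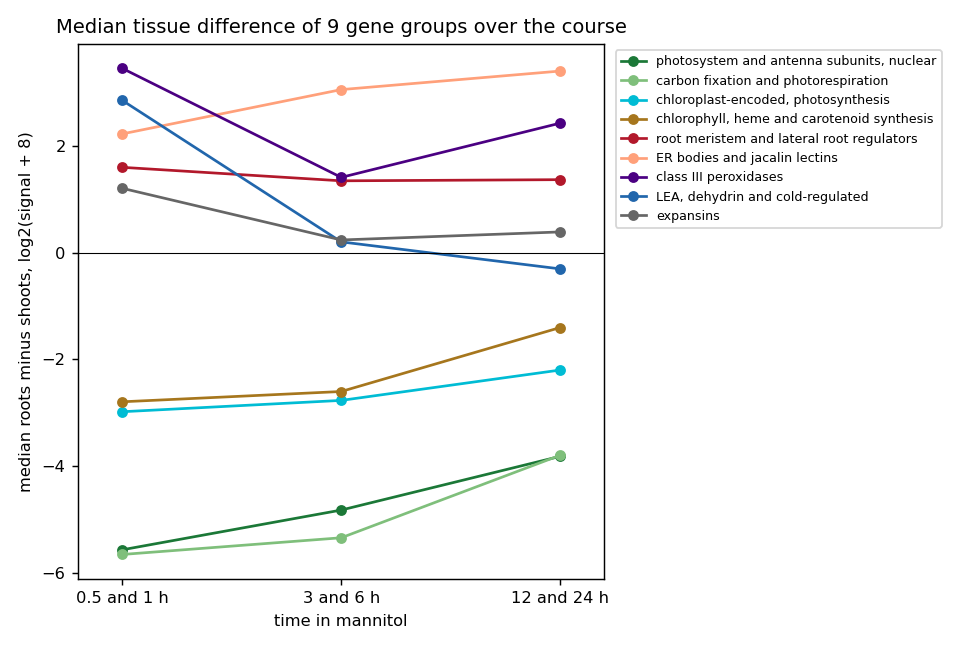
Median of the tissue difference, roots minus shoots in log2(signal + 8), of 9 gene groups at 0.5 and 1 h, at 3 and 6 h and at 12 and 24 h, each period with 4 arrays per tissue. The LEA group runs from 2.85 in the early period to -0.31 in the late one and the photosystem group from -5.57 to -3.82. Root regulators stay between 1.34 and 1.60.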

How the data were processed

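RNA of roots and shoots was measured on 24 ATH1 arrays of 22810 probe sets, of which 64 controls were left out. The deposited values are linear signal intensity, computed by the authors with MAS5 per the submitters' processing notes, which scales every array to 1 trimmed mean. The MAS5 version is not given in the sources used here. Replicates were not pooled.

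Signals were taken as log2(signal + 8). A probe set was tested if it was above the 40th percentile of its array on at least 2 of the 8 arrays. That kept 15875 probe sets and left out 6871, and 16814 were kept over all 24 arrays. Differences were fitted with limma 3.58.1 in R 4.3.3, with tissue and time as terms and an intensity trend in the prior variance. Fits of group means gave the changes between times and periods. P-values were adjusted by Benjamini-Hochberg over all probe sets tested, at a threshold of 0.05. The fits were run on simulated arrays with known differences in a small part of the probe sets. In the data most probe sets differed, so the simulation does not cover that setting.

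Of the probe sets, 13513 named 1 gene, 503 named several and 8730 had no name here. Symbols were updated through TAIR10.1, which matched 13436 of them, and the brightest probe set stood for a gene. Genes were named by 2 rules: the 15 largest differences in each direction over both times (5 for changes between times and periods), and members of gene groups, described in the order of their roles. Within the groups and among the genes that changed in roots, examples were picked after their values were seen. The comparison, the markers and the groups were chosen with earlier results of these data known, and the groups were put together from gene names.

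Replicate numbers 1 and 2 were not taken as pairs, since the labels name no shared culture. The alternatives were other pseudocounts, filters, scalings, prior variance, sets of arrays and replicate blocks, and leaving out each array in turn.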

Additional observations from a re-analysis of the deposited data

Results flagged for a closer look

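The tissue difference of 10 genes changed most between 0.5 and 1 h, by limma's test of that change itself at an adjusted p of 0.05. It was more positive at 1 h by 6.03 in AT2G20670, 5.25 in AT1G33055, 4.45 in DEWAX (AT5G61590), 3.71 in AT1G23390 and 3.47 in AT5G19120. It was more negative at 1 h, by -3.33 in AT5G12940, -3.33 in CML37, -3.24 in AT2G15020, -3.04 in AT1G14480 and -3.04 in AT3G01830. AT5G12940 had signals of 374, 375, 289 and 317 in roots, against 11.1, 35.9, 231 and 228 in shoots, so that shoots read higher at 1 h. AT5G19120 had 460.5, 618, 366 and 403 in roots, against 1533, 1786, 106 and 95.1 in shoots.

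Between the early period and 12 and 24 h, the difference changed most in another 10 genes by the test of that change. The early minus late value was 6.43 in LEA4-5, 6.3 in AT1G57590, 5.91 in AT2G43590, 5.90 in LTI30 and 5.84 in AT2G42560. It was -5.75 in AT5G28520, -5.16 in AT2G10940, -5.04 in AT5G48490, -4.88 in AT1G22690 and -4.69 in AT1G66100. AT2G43590 had 1219, 766, 931 and 673 in roots, against 2923, 2454, 1969 and 2435 in shoots at 12 and 24 h, after 1395, 684, 1450.3 and 993 in roots, against 42.2, 57.7, 45.4 and 27.6 in shoots at 0.5 and 1 h. AT5G48490 had 11.1, 14.3, 19.4 and 15.8 in roots, against 17.8, 17.7, 9.96 and 33.9 in shoots late, after 19.9, 17.3, 10.3 and 9.07 in roots, against 1371, 1226, 424 and 626 in shoots early.

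Against 3 and 6 h the early minus middle value was 4.94 in PUB19, 4.55 in LTI30, 4.44 in AT1G57590, 4.43 in EXPA16 and 4.39 in COR15B. It was -4.63 in SWEET2, -3.95 in AT1G33055, -3.55 in AT5G14120, -3.51 in GAT1_2.1 and -3.37 in AT1G53540. AT1G53540 had 53.2, 138, 142 and 781 in roots, against 7.88, 7.2, 12.6 and 10.4 in shoots at 3 and 6 h, after 10.9, 15.3, 14.4 and 13.5 in roots, against 12.9, 17.0, 19.1 and 6.92 in shoots at 0.5 and 1 h.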

How the results depend on the processing

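The count of 11630 probe sets that differed between tissues was 7436 with the stricter filter, which tested 10607, and 10845 to 11360 without 1 array. It was within 1.5 times under the other alternatives, from 10192 at 1 h only to 13095 with no filter. The count of changed tissue differences, 456 (2648 at an unadjusted p under 0.05), was 298 with no filter and 726 with all 24 arrays, and 150 to 720 without 1 array. The count of changes in roots, 26 (1954 unadjusted), was 77 with a pseudocount of 32, 12 with 2, 6 with no filter, 41 with the stricter filter, 51 with quantile normalization, 8 with no trend, 127 with all 24 arrays and 0 to 61 without 1 array. The causes were not tested. The count of changes in shoots was 611 to 1291 without 1 array. The early minus late count of 7882 was 7246 to 7731 without 1 array, and the early minus middle count of 5861 was 5149 to 5664.

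With replicate number as a block, 11395 probe sets differed between tissues (11030 with pairs within each time), 429 tissue differences changed, 12 probe sets changed in roots and 991 in shoots. The block gave 7889 for early minus late and 5890 for early minus middle. Deviations of same-numbered arrays correlated at -0.117 to 0.147, and the labels give no pairing.

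Directions turned in some genes. With quantile normalization GAPC2 was at 0.56. At 0.5 h only, AT5G19120 was at -1.62, EXLA2 at -0.94 and GSTU27 at 0.50. At 1 h only, AT1G14480 was at -0.61, AT1G23390 at 0.14, AT1G53560 at 0.49, AT4G09760 at 0.95, AT2G20670 at 1.19, DEWAX (AT5G61590) at 1.78, CML37 at -0.87 and GH9C2 at -0.046. The early minus late value of PDF2.1 was 0.36 with a pseudocount of 2. Calls on the tissue difference of named genes were lost in 109 cases of alternative and gene and gained in 31. In 5171 cases the call was unchanged, which includes uncalled differences that may have changed sign. Signals near 0 limit the fold changes of the weakest genes, which depend on the pseudocount.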
